A study of Mus musculus with 5 samples.

Results

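The transcripts described here are the long noncoding RNAs (lncRNAs, transcripts of at least 200 bases without a known protein product) of an adult mouse brain catalogue whose nearest reference transcript is itself a curated noncoding RNA, that is, a RefSeq accession starting NR_. They were taken from the deposited expression table by row type, length and accession, leaving out 16 well known lncRNA names such as Malat1, Meg3 and Sox2ot. The rule gave 1401 transcripts at 670 loci, of 8992 catalogue transcripts at 5731 loci and 37142 rows in all, and it used no expression value. A further 43 transcripts with an NR_ match were left out by name and 25 by length.

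All libraries came from microdissected, snap-frozen tissue of adult male wild-type C57BL/6 mice, and no agent or second genotype was used. The subventricular zone (SVZ), which lines the lateral ventricle and holds adult neural stem cells, had 2 biological replicates, called SVZ sample 1 and SVZ sample 2 here (SVZ1 and SVZ2 in the plots). The olfactory bulb (OB), where neurons born in the SVZ settle, the dentate gyrus (DG), the other neurogenic region, and the striatum (STR), the non-neurogenic control, had 1 sample each. Polyadenylated RNA was sequenced, and the labels give neither the number of animals per sample nor which libraries were read from both ends.

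A noncoding accession says that a transcript is known, not that it has a known function. Several such genes are best known for what lies inside them: snoRNA host genes are spliced, carry small nucleolar RNAs in their introns, and many are copied from promoters of the kind used by ribosomal protein genes. Others are the primary transcripts of microRNAs, short RNAs that pair through bases 2 to 8 (the seed) with target transcripts. Another kind starts beside a homeobox or other developmental gene and is copied from the opposite strand, and yet another comes from gene copies that no longer encode the protein.

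The reference genes of most loci kept a noncoding label in a later annotation. They were looked up by the accession that selected the locus, or by its symbol. The labels thus describe the reference gene and do not test the assembled transcript. RefSeq on GRCm38.p6 lists 552 of the 670 loci as lncRNA genes, 3 as antisense RNAs and 27 as microRNA genes, while 57 are transcribed pseudogenes, 1 a pseudogene and 25 now protein-coding; 5 had no match. The matched names were found by accession for 630 loci and by symbol for 35, and 144 loci now carry another symbol, given in brackets below where it differs. Of 1243 spliced transcripts whose gene has a spliced model in GENCODE M21, 1003 (80.7%) had every intron length present in that gene, 105 had some and 135 had none. The members were longer and had more exons than the rest of the catalogue: the median length was 1115 bases against 806, the median exon number 3 against 2, and 28.1% against 53.9% had exactly 2 exons. The longest member had 12017 bases, and 16 members had a single exon. Of the 1401 transcripts, 540 (38.5%) overlapped the deposited locus of a coding gene, against 34.5% of the other catalogue transcripts. Chromosome 2 held the most loci, 113 of 670.

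Mature microRNAs encoded at member loci are shown first, because the value of the locus is that of the long host transcript and not of the small RNA. Sequences are from RefSeq (GRCm38.p6), 5′ to 3′, with the seed in capitals.
miR-9-5p: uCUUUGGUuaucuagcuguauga
miR-9-3p: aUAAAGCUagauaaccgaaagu
miR-29b-3p: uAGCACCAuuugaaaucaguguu
miR-29c-3p: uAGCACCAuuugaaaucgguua
miR-132-3p: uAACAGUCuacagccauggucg
miR-212-3p: uAACAGUCuccagucacggcca
miR-100-5p: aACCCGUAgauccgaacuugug
let-7a-5p: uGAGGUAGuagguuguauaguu
miR-125b-5p: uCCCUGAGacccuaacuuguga
miR-22-3p: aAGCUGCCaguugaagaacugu
miR-670-5p: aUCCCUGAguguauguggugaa
miR-670-3p: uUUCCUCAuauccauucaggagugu
miR-345-5p: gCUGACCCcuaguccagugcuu
miR-29b-3p and miR-29c-3p share the seed AGCACCA and lie at 1 member locus, A330023F24Rik. miR-132-3p and miR-212-3p share AACAGUC and lie together at the locus whose nearest reference is Mir212. miR-9-5p and its partner strand miR-9-3p are encoded 3 times, at Mir9-1, C130071C03Rik (miR-9-2) and AI854517 (now Mir9-3hg), so the same mature sequence can come from 3 loci with their own levels. miR-100, let-7a and miR-125b have 3 different seeds and share the host 2610203C20Rik (now Mir100hg).

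The 5 libraries were treated as 2 sets that cut across the regions, SVZ sample 2 with STR, and SVZ sample 1 with OB and DG. These sets were taken from the values and are not named in the labels. Over the 284 member loci at 1 FPKM or more in a library (FPKM: sequenced fragments normalised for transcript length and library size), SVZ sample 2 and STR had a Pearson correlation of 0.930 on the log2(FPKM + 1) scale, against 0.840 for the 2 SVZ samples and 0.757 for SVZ sample 2 and OB; SVZ sample 1, OB and DG had correlations of 0.817 to 0.865 with each other. The correlations did not separate the 2 sets cleanly, since SVZ sample 1 had 0.826 with STR and 0.817 with DG. Over 14024 coding genes SVZ sample 1 was closest to SVZ sample 2 (0.941) and STR (0.910), before DG (0.883) and OB (0.877). SVZ sample 2 and STR had 0.968 there. These points share the library, so the values are a description. All 3 markers of striatal projection neurons were high in the SVZ libraries as well as in STR: Penk stood at 1580 and 1680 FPKM there and at 1210 in STR, Drd1a had 108, 119 and 158, and Adora2a had 190, 78.0 and 142. Their part in the SVZ to STR comparison was not tested. C1ql2 (217 FPKM in DG, at most 1.15 elsewhere), Calb2 (656 in OB, at most 7.72 elsewhere) and Foxj1 (61.0 and 23.5 in the SVZ, at most 7.49 elsewhere) were highest in the regions they mark. The neuroblast markers Dlx2 and Dcx were higher in OB, at 50.1 and 37.5 FPKM, than in the SVZ, where Dlx2 had 33.3 and 9.36 and Dcx 16.3 and 18. The DG library listed 336 of the 670 loci at 0, against 143 to 163 in the other 4, so a 0 in DG is read here only as listed at 0. The sequencing depth is unknown, since FPKM values carry no counts.

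Of the 670 loci, 284 (42.4%) reached 1 FPKM in at least 1 library, 120 (17.9%) did so in all 5, and 61 reached 10 FPKM. A further 307 stayed above 0 but under 1 FPKM everywhere, and 79 were listed at 0 in all 5 libraries. Per library, 181 (DG) to 215 (SVZ sample 2) loci reached 1 FPKM. In the rest of the catalogue 1592 of 5095 loci (31.2%) reached 1 FPKM in a library and 396 (7.77%) in all 5. The 10 highest member loci held between 36.1% (SVZ sample 2) and 47.7% (DG) of the summed FPKM of all members.

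The highest locus was Pisd-ps1, a transcribed pseudogene of the phosphatidylserine decarboxylase gene, with 368 FPKM in SVZ sample 1, 77.7 in SVZ sample 2, 368 in OB, 290 in DG and 125 in STR. Both low values belong to the set of SVZ sample 2 and STR. Gas5, a snoRNA host, followed with 197, 118, 152, 222 and 89.4 FPKM in the same library order. 1700020I14Rik (Oip5os1), known as Cyrano, had 45 and 57.1 FPKM in the SVZ samples, 91.2 in OB, 95.7 in DG and 68.9 in STR, so both SVZ values were the lowest of the 5. A930011O12Rik (Mir124a-1hg), the host of the neuronal microRNA miR-124, was even across regions, with 63.8, 63.0, 91.0, 73.1 and 66.0 FPKM. A030009H04Rik (Rnf227) had 59.4, 82.8, 82.5, 44.1 and 69.4 FPKM. D430019H16Rik, now listed as coding, had 101 FPKM in SVZ sample 1 and 54.2 to 65.5 in the other 4 libraries.

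**Figure D1:**
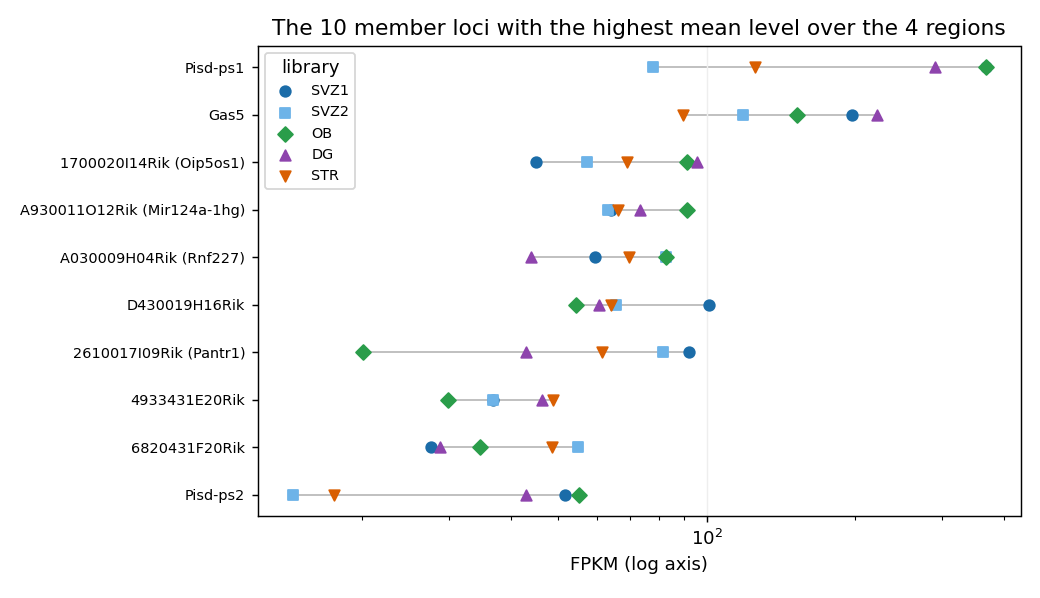
FPKM on a log axis of the 10 member loci with the highest mean log2(FPKM + 1) over the 4 regions; each point is 1 library and the grey line joins the lowest to the highest. Pisd-ps1 spans 77.7 to 368 FPKM with SVZ2 and STR lowest, while A930011O12Rik (Mir124a-1hg) stays between 63.0 and 91.0 FPKM.

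Differences between regions are given as the log2 difference of log2(FPKM + 1), which understates the fold of low loci, minus the median difference of all coding genes in that pair, with the standard error (SE) of the limma fit. That coding median was 0.24 for SVZ minus STR, -0.24 for SVZ minus OB and 0.01 for SVZ minus DG. It was 0.25 for OB minus DG, 0.53 for OB minus STR and 0.26 for DG minus STR. All counts of loci by size, and the region-enriched loci, used the differences before this median was taken off. The SE rests on the 2 SVZ samples alone, which assumes that the single samples of the other regions vary like them. No member passed an adjusted p of 0.05 in any pair, so the words higher and lower below describe sizes, not passed tests. In tissue, fewer cells of a type and less RNA per cell cannot be told apart.

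All 16 loci of the snoRNA host list reached 1 FPKM in a library and 12 of them in all 5; none was listed at 0 anywhere. By annotation 2 of them, 2810008D09Rik (Snhg20) and Snhg10, hold a microRNA and no snoRNA. Their summed level was 327 FPKM in SVZ sample 1, 226 in SVZ sample 2, 297 in OB, 327 in DG and 175 in STR. The median relative difference over the hosts stayed between -0.04 and 0.10 in the 6 region pairs. Between OB and DG 2 of 16 hosts were higher in OB by 1 log2 unit or more and 1 was lower, where 15.3% and 6.20% of all units were. Between SVZ and STR 1 of 15 was higher and none lower, against 7% and 2.36% of all units. The pairs across library sets had the most: 5 higher and 1 lower of 16 for OB minus STR (28.8% and 9.45% of all units), and 4 and 2 of 16 for DG minus STR (17.5% and 12%). The steadiest host was Snhg4, which ranged from 5.35 to 7.85 FPKM. Snhg10 ranged from 2.30 to 5.93, Snhg7 from 1.84 to 4.0 and Snhg17 (9430008C03Rik) from 2.97 to 5.97.

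The start sites of these hosts are shown because several begin with a run of C and T. Such runs are known from terminal oligopyrimidine genes, the class of ribosomal protein transcripts. The bases are from RefSeq promoter windows (GRCm38.p6), with 10 bases before the start and 15 from it, and the leading run in capitals.
Gas5, chr1:161035156-161035180, + strand: ccatctcagcCTTTCggagctgtgc
Snhg8, chr3:123508322-123508346, - strand: gttcagaagtCTCTTTggctgcgat
Snhg12, chr4:132308668-132308692, + strand: ttctcagtccTTTCTCgcttcatcc
Snhg7, chr2:26640230-26640254, - strand: gatgctcggcCTCTCggcagccatg
1110038B12Rik, chr17:34952454-34952478, - strand: gcacacgggtCTCTTTgtgcacccg
2410006H16Rik, chr11:62602867-62602891, + strand: cgccgtctttCTCTgcggccatcat
Of 12 host genes with a promoter window, 7 had at least 1 start that opens with 4 or more C or T bases, against 2193 of 27025 genes in the table (8.11%) and 21 of 192 detected members (10.9%). Either C or T was taken as the first base, and the starts of Snhg12 and Snhg17 open with T. The count is therefore not one of terminal oligopyrimidine genes. Gas5, 1110038B12Rik and Snhg17 each have another window with no leading C or T, and Snhg1 had a run of 3. The match is a description of the annotated start and not of where these libraries began.

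Snhg8 and Snhg6 were the hosts that split most by library set. The Snhg8 catalogue transcript had 19 FPKM in SVZ sample 1, 23.5 in OB and 18.1 in DG, but 0.716 in SVZ sample 2 and 1.40 in STR. The separate RefSeq row of Snhg8 in the same table went the other way, with 2.06, 3.48 and 2.51 FPKM in the first 3 and 11.3 and 16.1 in SVZ sample 2 and STR. Summed over both rows, Snhg8 had 21.1, 27.0 and 20.6 FPKM in SVZ sample 1, in OB and in DG and 12 and 17.5 in SVZ sample 2 and STR, so the sets still did not overlap but lay closer.

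Snhg6 showed the mirror image. Its catalogue transcripts had 4.87, 5.97 and 6.12 FPKM in SVZ sample 1, in OB and in DG and 23.0 and 16.6 in SVZ sample 2 and STR, while its RefSeq row had 19.9, 18.8, 11, 4.07 and 4.84 FPKM in that order. Summed, Snhg6 had 24.8, 24.8, 17.1, 27.0 and 21.5 FPKM, and the sets overlapped. For Snhg12 the RefSeq row was listed at 0 in SVZ sample 2 and STR and had 18.8, 18.8 and 23.7 FPKM in SVZ sample 1, in OB and in DG, where the catalogue transcripts had 17.8, 15 and 6.70. Summed, Snhg12 had 36.6, 33.7 and 30.4 FPKM in those 3 libraries and 25.1 and 22.7 in SVZ sample 2 and STR. 2410006H16Rik also split by set, with 33.0, 40.6 and 22.6 FPKM in SVZ sample 1, in OB and in DG and 8.75 and 9.31 in SVZ sample 2 and STR.

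**Figure D2:**
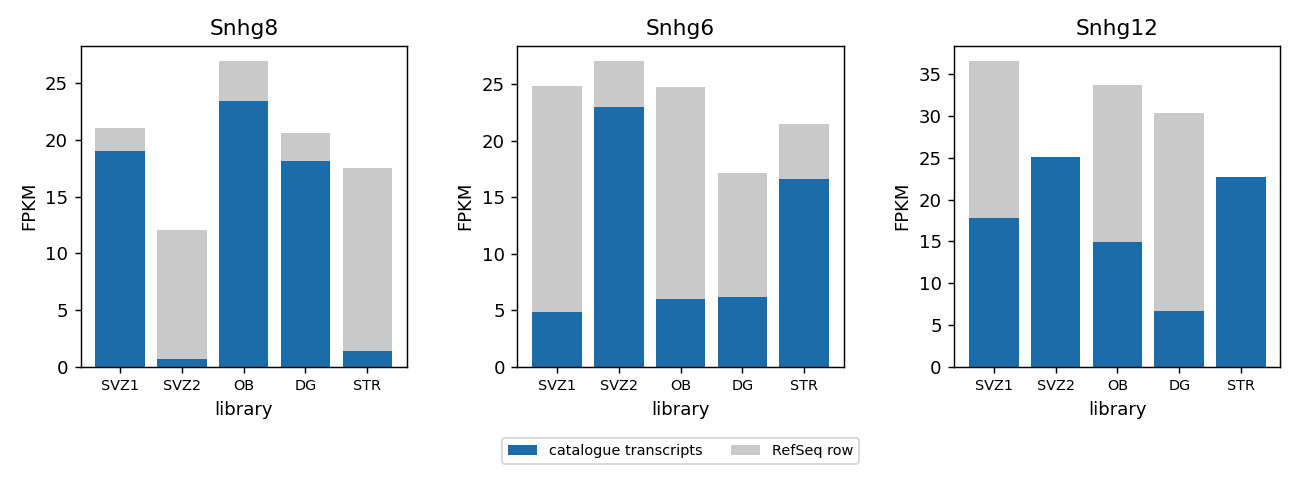
Stacked bars of the FPKM of the catalogue transcripts (blue) and of the RefSeq row with the same accession (grey) for Snhg8, Snhg6 and Snhg12 in each of the 5 libraries. The blue part of Snhg8 is 23.5 FPKM in OB and 0.716 in SVZ2, while its whole bars lie between 12 and 27.0 FPKM.

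Of 10 microRNA host loci, 8 reached 1 FPKM, with a median range over the 5 libraries of 1.23 log2 units against 1.18 over all detected members, and of 28 loci whose nearest reference is itself a microRNA, 18 did. A330023F24Rik, the host of miR-29b and miR-29c, had 30.7 and 31.3 FPKM in the SVZ samples, 32.0 in OB, 21 in DG and 34.2 in STR. The 3 miR-9 loci did not share 1 pattern. Mir9-1 lay between 12.8 and 18.4 FPKM in all 5 libraries. C130071C03Rik had 23.9 and 25.2 FPKM in the SVZ, 32.1 in OB, 20.3 in DG and 14.8 in STR. AI854517 (Mir9-3hg) had 12.4 and 9.66 FPKM in the SVZ, 24.1 in OB, 5.59 in DG and 7.88 in STR, and was 1.68 ± 0.49 (SE) above DG in OB. OB was the highest library at each of the 3.

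Mir100hg, the host of miR-100, let-7a and miR-125b, was matched by 2610203C20Rik and by 3110039I08Rik. The latter was also detected, and its values are not described here. 2610203C20Rik had 4.72 and 4.97 FPKM in the SVZ and 5.05 in STR, against 1.53 in OB and 0.520 in DG. Its RefSeq row was higher and had 38.4, 41.7, 18.5, 13.6 and 20.3 FPKM, again with DG lowest. The relative difference of the catalogue transcript was 1.93 ± 0.35 (SE, n = 2 SVZ samples and 1 DG sample) for SVZ minus DG and 1.45 ± 0.35 for SVZ minus OB, with adjusted p of 0.21 and 0.31 by limma. 2210403K04Rik (Mir22hg), which carries miR-22, had 1.72 and 4.8 FPKM in the SVZ, 1.54 in OB, 0.758 in DG and 3.31 in STR.

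The transcript at Mir212, which carries the activity-regulated pair miR-212 and miR-132, varied most among all of these. It had 5.46 FPKM in SVZ sample 1 and 35.1 in SVZ sample 2, 3.40 in OB, 12.5 in STR, and was listed at 0 in DG. Its relative difference of 3.92 ± 1.24 for SVZ minus DG was the largest in that pair; before the coding median was taken off it was 3.93, and 5.17 without SVZ sample 1 and 2.69 without SVZ sample 2. In the catalogue transcript, both libraries of the set of SVZ sample 2 and STR were above the other 3. The 2 SVZ samples lay farther apart there than SVZ sample 1 and OB. The separate RefSeq row of Mir212, of 91 bases, had 10.4 and 15.7 FPKM in the SVZ samples. It had 4.28 in STR, below SVZ sample 1, and was listed at 0 in OB and DG. With that row added, SVZ minus DG was 4.89 before the coding median was taken off. The locus at Mir670 had 15.3 FPKM in OB and 2.28 to 3.88 in the other 4 libraries, 1.66 ± 0.41 above the SVZ. The transcript at Mir345 split by set in the other direction, with 7.23, 6.16 and 7.31 FPKM in SVZ sample 1, in OB and in DG against 1.53 and 0.942 in SVZ sample 2 and STR. So did B230206F22Rik (Ftx), a noncoding gene of the X inactivation centre that also holds microRNAs, with 3.63, 4.84 and 4.09 FPKM against 0.462 and 0.723.

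**Figure D3:**
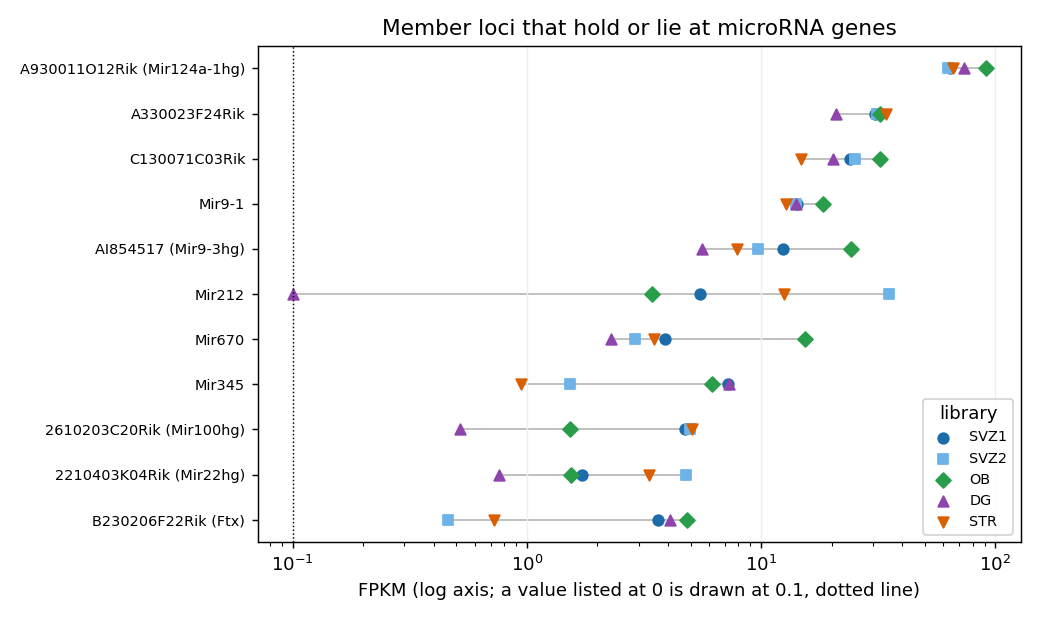
FPKM on a log axis of 11 member loci that hold or lie at microRNA genes, 1 point per library; a value listed at 0 is drawn at 0.1. The Mir212 locus spans from listed at 0 in DG to 35.1 FPKM in SVZ2, while Mir9-1 stays between 12.8 and 18.4 FPKM.

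Rows of the small RNAs themselves say little in these libraries. The table held 76 RefSeq rows under 200 bases at the deposited loci of 40 members, mostly microRNA hairpins and snoRNAs. Of these rows 17 reached 1 FPKM in SVZ sample 2 and 16 in STR, against 3 in SVZ sample 1 and none in OB or DG. How reads were assigned to rows this short is not stated.

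Cyrano is known for 1 conserved site that pairs almost fully with miR-7, and the site is shown with the microRNA. The capitals mark the seed in the microRNA and, in the site from the GENCODE M21 transcript of 1700020I14Rik, the bases that pair with the microRNA.
miR-7a-5p: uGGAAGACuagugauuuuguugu
Oip5os1 site: ACAACAAAATCACcaatGTCTTCCA
Of the 23 bases of miR-7a-5p, 21 have a partner in the site, 13 at its 5′ end and 8 at its 3′ end, with 4 unpaired bases between. The site lies in a transcript of 8300 bases that holds 2 matches to the seed. For 1700020I14Rik the relative difference was -0.92 ± 0.43 for SVZ minus DG and -0.59 ± 0.43 for SVZ minus OB, with adjusted p of 0.511 and 0.559 by limma. C230004F18Rik (Cdr1os) lies on chromosome X (mm9 58369561 to 58429166), and no miR-7 site was searched for there. It had 8.28 and 10.2 FPKM in the SVZ, 4.63 in OB, 6.72 in DG and 21.6 in STR, so STR was the highest. Cdr1, whose row lies 7254 bases away, was highest in STR as well, with 50.9 FPKM against 11.3 and 22.5 in the SVZ, 32.0 in OB and 19.1 in DG.

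Of 82 loci named as opposite-strand or antisense genes, 26 reached 1 FPKM and 10 did so in all 5 libraries. The strand of the reads is not stated, so reads of such a transcript and of a coding gene that it overlaps cannot be told apart. Emx2os, opposite the forebrain homeobox gene Emx2, had 5.10 FPKM in DG against 1.09 and 1.12 in the SVZ, 1.15 in OB and 0.553 in STR. Emx2 itself was also highest in DG, with 13.8 FPKM against 3.39 to 8.44 elsewhere. The relative difference of Emx2os for SVZ minus DG was -1.55 ± 0.28 (adjusted p = 0.211, limma).

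2610017I09Rik (Pantr1), which overlaps the deposited locus of the neural POU-domain gene Pou3f3 on chromosome 1 (mm9 42705045 to 42751670), had 92.2 and 81.6 FPKM in the SVZ, 61.3 in STR, 42.9 in DG and 20.1 in OB. OB was the lowest library. SVZ minus OB was 2.30 ± 0.40 (adjusted p = 0.203, limma). 2010001M06Rik (Abhd11os) had 14.2 and 5.60 FPKM in the SVZ, 19.4 in STR, 2.68 in OB and 4.65 in DG, and the 2 SVZ samples differed more than SVZ sample 2 and DG did. LOC329427 (Chn1os3) was lowest in OB, with 1.24 FPKM against 3.50 to 5.08 elsewhere. Gm16119 (Uckl1os) had 5.42 and 8.42 FPKM in the SVZ and 1.24 to 3.83 in the other regions. 4932415G12Rik (Cep83os) was even, from 5.58 to 8.49 FPKM. Dlx6as, a single-exon transcript of 1354 bases at the homeobox gene Dlx6, stayed under 1 FPKM in all 5 libraries, with 0.535 in OB as its highest value and 0 listed in DG.

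Of 5 loci of widely expressed lncRNAs, all reached 1 FPKM in a library and 4 did so in all 5. The main locus of Firre (6720401G13Rik), an X-linked RNA of the nucleus, had 13.2 and 15.1 FPKM in the SVZ, 17.1 in OB, 11.6 in DG and 12.2 in STR. Pvt1, beside Myc, had 1.13 FPKM in OB and 2.06 to 3.82 elsewhere. Of 6 loci on the imprinted list, 2 reached 1 FPKM in a library. Dio3os, Nespas, Igf2as and Nctc1 did not, nor did Tsix of the X inactivation centre. Ipw of the Snrpn cluster had 23.0 and 11.7 FPKM in the SVZ, 28.5 in OB, 19.9 in DG and 33.5 in STR. D7Ertd715e, a locus of Snhg14, had 0.716 in OB and 1.62 to 2.70 elsewhere. Another detected Snhg14 locus, C230091D08Rik, is on the snoRNA host list alone and was not lowest in OB. There SVZ sample 1 minus OB was -0.35 log2 units and OB minus DG 0.01, against 0.87 and -1.11 at D7Ertd715e. The steadiest member with at least 5 FPKM in all libraries was 5530601H04Rik on chromosome X, at 15.1, 15.2, 14.3, 14.8 and 14.8 FPKM. It was followed by 2500004C02Rik, Ppp4r1l-ps, Snhg4 and D130017N08Rik, with ranges of 0.43 to 0.48 log2 units against 0.07. Of the 46 loci at 5 FPKM or more in all 5 libraries, 27 ranged over less than 1 log2 unit.

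Region-enriched loci were those at least 1 log2 unit above each of the other 3 regions, a description with no test. The SVZ had 3 of the 284 detected members, OB 9, DG 10 and STR 7. Among all 16635 units at 1 FPKM or more (coding genes, RefSeq noncoding genes and catalogue loci) the shares were 2.23% for the SVZ, 6.43% for OB, 3.19% for DG and 1.73% for STR, against 1.06%, 3.17%, 3.52% and 2.46% of the members. In STR, 3 of the 7 loci were also high in SVZ sample 2. The counts rest on few loci: without SVZ sample 1 or 2 the SVZ had 6 or 7 and STR 4 or 14.

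In OB, 9330158H04Rik (chromosome 6, mm9 36159620 to 36340191, 8 transcripts) had 18.1 FPKM against 1.49 and 0.757 in the SVZ, 1.52 in STR and 0 listed in DG. It overlaps the muscarinic receptor gene Chrm2, which had 24.3 FPKM in OB and 0.704 to 3.67 elsewhere. As the strand of the reads is not stated, reads of 9330158H04Rik and of Chrm2 cannot be told apart where they overlap. E430016F16Rik (chromosome 7, mm9 85729191 to 85768364, 4 transcripts) had 9.62 FPKM in OB and at most 0.698 elsewhere, and lies 6467 bases from the neurotrophin-3 receptor gene Ntrk3, which was not highest in OB (35.5 FPKM against 65.9 in DG). SVZ minus OB was -3.03 ± 0.24 for E430016F16Rik and -2.95 ± 0.39 for 9330158H04Rik, with adjusted p of 0.162 and 0.169 by limma. A730043L09 had 5.96 FPKM in OB and at most 0.497 elsewhere, and C030034I22Rik had 2.28 and at most 0.357. Chosen after their values were seen, Gm2694, which starts 220 bases from the synaptic organiser Cbln1, had 6.05 FPKM in OB against 1.10 to 1.90 in the SVZ and STR and 0 listed in DG, and Cbln1 had 43.8 FPKM in OB and at most 1.94 elsewhere.

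In DG, F730043M19Rik (chromosome 12, mm9 33796576 to 33832462, 5 transcripts) had 32.1 FPKM against 1.95 and 4.95 in the SVZ, 9.17 in OB and 6.17 in STR. 6530402F18Rik had 17.2 FPKM in DG against 1.85 to 4.43 elsewhere, and it overlaps Ntng2, a netrin-G axon guidance gene, with 53.5 FPKM in DG and 2.22 to 9.48 elsewhere. AI115009 had 2.67 FPKM in DG and at most 0.136 elsewhere. It overlaps the adenylate kinase gene Ak5, with 166 FPKM in DG and 6.80 to 29.2 elsewhere. Without the strand, reads of 6530402F18Rik and AI115009 cannot be told apart from overlapping reads of Ntng2 and Ak5. Gm2762 had 3.46 and 8430429K09Rik 3.8 FPKM in DG. SVZ minus DG was -3.00 ± 0.62 for F730043M19Rik and -2.31 ± 0.52 for 6530402F18Rik, with adjusted p of 0.232 and 0.246 by limma.

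In the SVZ the leading locus was Gm10714 (chromosome 2, mm9 173950539 to 174009419, 4 exons), with 6.77 and 2.77 FPKM in the 2 samples, 0.134 in OB and 0 listed in DG and STR. The transcripts at Mir5112 and Mir202 followed, with 2.82 and 1.39 FPKM and 1.66 and 1.33 FPKM in the SVZ samples and at most 0.193 in any other library. 1190002F15Rik (Lockd), 3559 bases from the cell cycle inhibitor gene Cdkn1b, had 4.48 and 3.62 FPKM in the SVZ, 1.52 in DG, 0.505 in OB and 0.237 in STR. Its SVZ minus STR difference was 1.79 ± 0.31. Before the coding median was taken off it was 2.02, against 1.90 between SVZ sample 2 and STR alone. In STR, besides C230004F18Rik and 2010001M06Rik, 9530036O11Rik had 3.41 FPKM against 0.240 to 1.08 elsewhere, at the deposited locus of Shh. A Gm13845 (Mkln1os) locus with a transcript of 279 bases had 3.14 FPKM against 1.28 in SVZ sample 2 and at most 0.264 elsewhere. The other Gm13845 loci were not enriched in STR. Their SVZ sample 2 minus STR differences were -0.42 and 0.42 log2 units, against -0.86 at this locus.

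**Figure D4:**
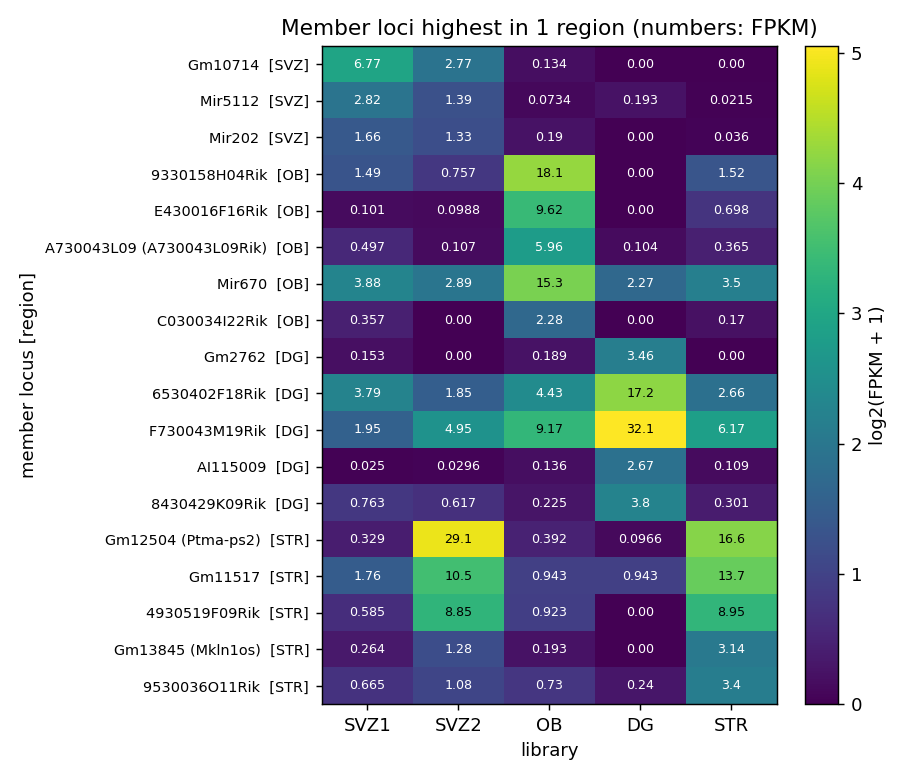
Heat map of log2(FPKM + 1) for the region-enriched member loci with the largest margins, up to 5 per region, with FPKM printed in each cell; the region is in square brackets. The 5 OB and 5 DG rows are brightest in the column of their region, while Gm12504, Gm11517 and 4930519F09Rik are bright in both SVZ2 and STR. The peaks differ in level: C030034I22Rik reaches 2.28 FPKM in OB, while F730043M19Rik has 9.17 FPKM in OB beside 32.15 in DG.

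Promoter windows of some region-enriched OB and DG loci are shown because loci high in the same region need not share a promoter type. The loci were picked and not taken in order of margin. The OB loci ranked 1 and 2 by margin, and the DG loci 2 and 4. Each has 250 bases before and 50 from the RefSeq start (GRCm38.p6), read along the gene's strand, with every CG in capitals.
9330158H04Rik, OB, chr6:36388185-36388484, - strand: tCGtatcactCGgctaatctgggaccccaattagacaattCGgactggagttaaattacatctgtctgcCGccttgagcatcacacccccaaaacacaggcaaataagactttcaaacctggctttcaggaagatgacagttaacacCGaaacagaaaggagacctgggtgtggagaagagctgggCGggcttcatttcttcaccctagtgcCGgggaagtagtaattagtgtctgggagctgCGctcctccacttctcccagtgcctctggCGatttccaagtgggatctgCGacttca
E430016F16Rik, OB, chr7:78718171-78718470, - strand: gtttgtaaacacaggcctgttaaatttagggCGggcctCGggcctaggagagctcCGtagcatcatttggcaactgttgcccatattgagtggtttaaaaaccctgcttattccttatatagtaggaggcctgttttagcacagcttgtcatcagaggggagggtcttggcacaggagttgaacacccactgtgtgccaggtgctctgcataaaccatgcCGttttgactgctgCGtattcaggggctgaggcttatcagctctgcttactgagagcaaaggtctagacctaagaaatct
6530402F18Rik, DG, chr2:29252944-29253243, - strand: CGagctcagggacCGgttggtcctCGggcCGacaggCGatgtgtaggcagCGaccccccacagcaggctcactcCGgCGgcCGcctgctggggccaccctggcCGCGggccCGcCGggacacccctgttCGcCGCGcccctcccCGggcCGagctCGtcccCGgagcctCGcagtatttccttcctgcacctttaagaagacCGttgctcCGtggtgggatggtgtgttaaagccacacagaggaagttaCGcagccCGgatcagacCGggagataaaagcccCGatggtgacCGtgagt
AI115009, DG, chr3:152666663-152666962, + strand: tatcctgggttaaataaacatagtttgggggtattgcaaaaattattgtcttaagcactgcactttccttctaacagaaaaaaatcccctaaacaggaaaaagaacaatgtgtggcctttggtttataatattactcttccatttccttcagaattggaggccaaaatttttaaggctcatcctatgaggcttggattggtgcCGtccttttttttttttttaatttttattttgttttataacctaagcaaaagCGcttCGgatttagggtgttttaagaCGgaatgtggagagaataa
The counts of CG were 10 and 5 for the OB loci and 28 and 4 for the DG loci shown. Gm2762 and F730043M19Rik, ranked 1 and 3 in DG and not shown, had 6 and 33. The median was 7 over all 32851 windows in the table, 4 over those of all lncRNA genes and 15 over those of detected members, and 20 or more were found in 26.5%, 9.15% and 38.7% of these windows. The E-box CAGATG, searched on both strands, was found in 1 of the 4 windows shown, that of 9330158H04Rik. CAGCTG (its own reverse complement) was found in none of them, and the shares of all windows were 17.2% and 16.3%. No factor binding was measured.

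Between SVZ and STR, the comparison with the fewest differences, 9 of 248 member loci (3.63%) exceeded STR by 1 log2 unit or more and 12 (4.84%) lay below it by as much, against 7% and 2.36% of all units tested. After median-ratio scaling of the libraries these counts were 9 and 23 of 258. Besides Gm10714 (2.20 ± 0.55) and Lockd, the transcript at Mir5112 had the next largest difference (1.33 ± 0.39). E030003E18Rik was the lowest at -2.94 ± 0.57. It had 5.41 and 11 FPKM in the SVZ, 26.3 in OB, 78.6 in DG and 56.2 in STR. The 2 SVZ values were thus below all others. A single transcript of 207 bases held 4.35 and 8.61 FPKM of this in the SVZ samples. In OB, DG and STR that transcript held 8.62, 49.6 and 38.8 FPKM, most of the locus except in OB. How reads were assigned to a transcript this short is not stated, so the size of this difference is uncertain. No member passed the limma test, with 13 of 248 at an unadjusted p under 0.05, and 4.69% of all units were under that value and 0% passed after adjustment. Without SVZ sample 1 the counts were 11 and 6, and without SVZ sample 2 they were 26 and 29.

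Between SVZ and OB, 25 of 260 members (9.62%) were higher in the SVZ and 27 (10.4%) lower, against 8.57% and 14.2% of all units. After scaling the counts were 33 and 15 of 254, so the balance turned. Gm10754 (chromosome 10, 5 exons) led the SVZ side, with 12.2 and 5.01 FPKM in the SVZ, 11.2 in STR, 0.997 in DG and 0.0657 in OB, a relative difference of 3.31 ± 0.65 (adjusted p = 0.222, limma). OB was the lowest of all libraries there. The lowest were E430016F16Rik, 9330158H04Rik and A730043L09 (-2.19 ± 0.31), all named above. At an unadjusted limma p under 0.05 were 34 of 260 members and 13.7% of all units, and 0% passed after adjustment.

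Between SVZ and DG, 51 of 270 members (18.9%) were higher in the SVZ and 23 (8.52%) lower, against 12.8% and 8.46% of all units. In the rest of the catalogue the shares were 25.1% and 13%. The DG library listed 336 members at 0, against 143 to 163 in the others, and the part of this in the count was not tested. Gm14204, which starts 34 bases from the GABA transporter gene Slc32a1, had 10.1 and 8.35 FPKM in the SVZ, 10.1 in OB, 4.99 in STR and 0.458 in DG, a relative difference of 2.79 ± 0.41 (adjusted p = 0.199, limma). E030003E18Rik was lowest again, at -3.19 ± 0.57, and its 207-base transcript held most of the SVZ and DG values, so this size is uncertain too. Limma gave 65 of 270 members and 14% of all units an unadjusted p under 0.05, and 0% passed after adjustment.

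Between OB and DG, 37 of 229 members (16.2%) were higher in OB and 22 (9.61%) lower, against 15.3% and 6.20% of all units. After scaling the counts were 29 and 29 of 219. 9330158H04Rik (4.0 ± 0.45), E430016F16Rik (3.15 ± 0.28) and Gm10863 (2.76 ± 0.35) were the highest. Gm10863, a locus 1551 bases from the glial factor gene Sox10, had 7.07 FPKM in OB against 1.23 to 2.09 in the SVZ and STR and 0 listed in DG. 2010204K13Rik, on chromosome X, was among the lowest at -2.16 ± 0.50, with 10.3 FPKM in OB, 41.4 in DG and 16.8 to 30.7 in the others. No member passed limma with 1 variance prior for all pairs (40 of 229 at an unadjusted p under 0.05, and 12.4% of all units), and 0% of units did. When the prior came from the units of this pair alone, a setting tried after seeing the data, 10 members passed.

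OB and STR, and DG and STR, lie in different library sets, so each difference is also given bridged through the SVZ, as the difference of OB or DG from SVZ sample 1 minus that of STR from SVZ sample 2. Between OB and STR, 35 of 236 members (14.8%) were higher in OB and 38 (16.1%) lower, against 28.8% and 9.45% of all units; bridged, 29 and 22. Between DG and STR, 40 of 242 (16.5%) were higher in DG and 56 (23.1%) lower, against 17.5% and 12%; bridged, 25 and 44. After scaling the counts were 20 and 64 of 239, and 26 and 73 of 255. The unadjusted limma p was under 0.05 for 38 and 53 members, and for 13.8% and 11.8% of all units, and 0% passed after adjustment in both pairs. For OB minus STR the relative difference was 2.82 ± 1.99 for Snhg8, -4.19 ± 2.50 for Gm12504 and -4.05 ± 0.76 for Gm10754. Before the coding median was taken off, Snhg8 was at 3.35 directly and -0.20 bridged. Gm12504 was at -3.66 and 0.84 on that scale. Gm10754 was at -3.52 and -4.66, lower in OB both ways.

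**Figure D5:**
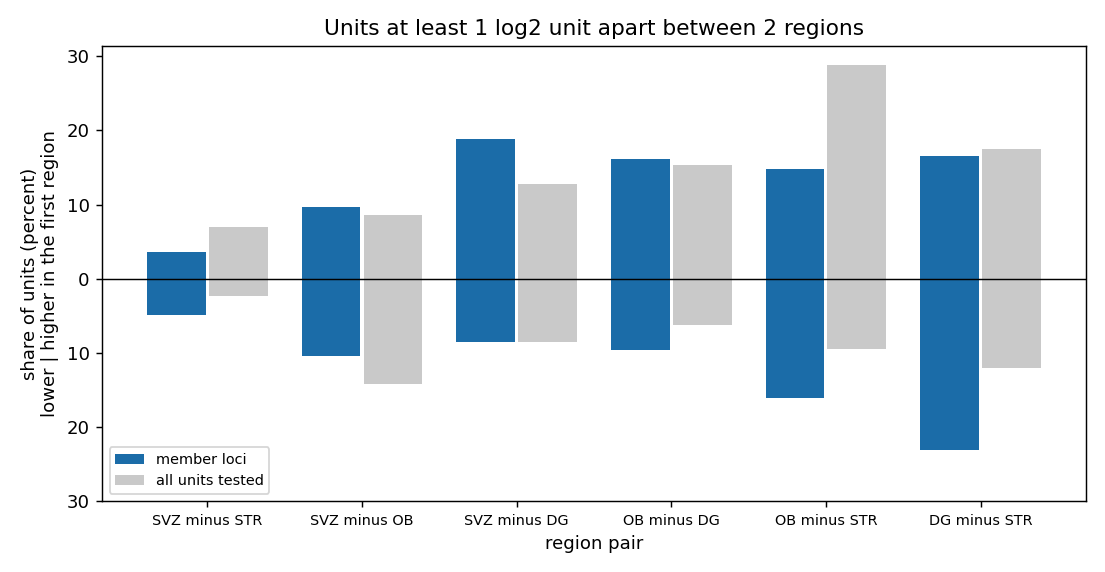
Share of units at least 1 log2 unit higher (up) or lower (down) in the first region of each pair. Member loci are blue and all units tested grey. Counts are by size, before the coding median is taken off, with no test. The members' bars are shorter than the grey ones on the upper side for OB minus STR (14.8% against 28.8%) and longer on the lower side for DG minus STR (23.1% against 12%).

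Loci that separated the library sets completely were counted by the same size. In each direction 9 were found. Of 284 members, 9 stood 1 log2 unit or more higher in SVZ sample 1, OB and DG than in both SVZ sample 2 and STR. A further 9 were lower, so each share was 3.17%, against 3.20% and 2.34% of all units. These counts use the catalogue transcripts alone. They include Snhg6, whose sets overlapped once its RefSeq row was summed. Of the 9 higher in SVZ sample 2 and STR, 5 are now annotated as transcribed pseudogenes, as are 3 of the other 9, while 31 of the 284 detected members are. Gm12504 (Ptma-ps2), a 1-exon copy of the prothymosin alpha gene, had 29.1 FPKM in SVZ sample 2 and 16.7 in STR and at most 0.392 in the other 3. 4930519F09Rik had 8.85 and 8.95 FPKM against 0.923 or less, and Gm11517 had 10.5 and 13.7 against 1.76 or less. Reads of such copies can be shared with the parent gene, so their values are uncertain. Gt(ROSA)26Sor, the noncoding gene of the Rosa26 locus, had 11.2 and 5.79 FPKM against 0.721 or less.

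Of 25 loci now annotated as coding, 10 reached 1 FPKM, with a median range over the libraries of 0.99 log2 units. 5430417L22Rik (Inafm2) had 14 to 25.5 FPKM and BC029722 had 17.6 to 32.2. 1810058I24Rik, with 18, 9.58, 21, 16.3 and 6.81 FPKM, was lowest in SVZ sample 2 and STR. 2210013O21Rik (Nbdy), a gene of a small P-body protein, had 3.12 FPKM in STR, 1.87 and 1.11 in the SVZ, 0.762 in OB and 0 listed in DG.

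Within loci, the leading transcript differed between libraries at many of those that could be compared. Of 32 loci with several member transcripts and at least 5 FPKM in all libraries, 16 had the same leading transcript in all 5. At Pisd-ps1 and 4933431E20Rik, 1 transcript led in SVZ sample 1, OB and DG and another in SVZ sample 2 and STR. For 4933431E20Rik these had 5407 and 3845 bases, while the locus as a whole had 36.9, 36.9, 29.8, 46.3 and 48.9 FPKM. Of 131 detected loci with a RefSeq row of the same accession, adding that row brought the 2 SVZ samples closer at 64 and farther apart at 52, and the number at least 1 log2 unit apart went from 25 to 21.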

How the data were processed

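Polyadenylated RNA of 5 libraries was analysed from the authors' deposited FPKM values per transcript (mm9). CASAVA, TopHat 1.2.0 and Cufflinks 1.0.0 are named, per the submitters' processing notes; strand and filters are not given in the sources used here. Transcript lengths and exon numbers are as deposited by the authors. FPKM values were summed per locus. Region differences were fitted with limma 3.58.1 in R 4.3.3 (trend, 1 residual degree of freedom) on log2(FPKM + 1), with Benjamini-Hochberg adjustment per pair over coding genes, RefSeq noncoding genes and catalogue loci reaching 1 FPKM in one of the libraries compared; the fit was tested on simulated data. Because that leaves 1 degree of freedom, units were also counted by size, at 1 log2 unit or more. Few low values fell on whole-read steps, so no counts were recovered and the depth is unknown.

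Named loci were members of the fixed gene lists at 1 FPKM or more, the 10 highest, the 3 largest differences each way per pair, up to 5 region-enriched loci per region and the 5 steadiest; the remaining examples (among them the now coding loci and the loci that split by library set) were picked with their values in view. The snoRNA, microRNA and antisense lists were also applied to current symbols, after seeing the data. The members and lists were chosen with earlier results of these data known. Alternatives were the pseudocount, filter, scaling, size threshold, unit, added RefSeq row and each SVZ sample left out; the variance prior, bridging and single-set alternatives were added after seeing the data.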

Additional observations from a re-analysis of the deposited data

How the results depend on the processing

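No paired analysis was possible because only the SVZ had 2 samples. Of the alternative values for counts and tests, 91 stayed within 1.5 times the reported value and 50 did not. Many of the 91 were limma call counts that stayed at 0. Size counts without a filter could not change, since a difference of 1 log2 unit already needs 1 FPKM. Totals were compared, so SVZ-OB after scaling counted as kept although its balance turned. The 91 therefore overstate how steady the counts were. For the named loci, 143 kept their direction and size call, 7 fell below 1 log2 unit and 6 reversed. Counts of members at least 1 log2 unit apart are given for SVZ-STR, SVZ-OB, SVZ-DG, OB-DG, OB-STR and DG-STR in turn. Counted per transcript, they were 69, 105, 131, 142, 170 and 164. With a filter of 5 FPKM they were 13, 32, 26, 21, 39 and 34. At 2 log2 units they were 3, 8, 14, 12, 15 and 19. With a pseudocount of 0.1 the first 4 were 57, 95, 131 and 101. Median-ratio scaling gave 32 for SVZ-STR. With 1 SVZ sample left out, the counts ranged from 17 to 55 for SVZ-STR (55 without SVZ sample 2), 42 to 77 for SVZ-OB and 74 to 97 for SVZ-DG. Without a filter on low values, limma called 4 members for SVZ-STR, 17 for SVZ-OB, 19 for OB-DG, 25 for OB-STR and 7 for DG-STR, against 0 with it; the prior from the pair's own units called 10 for OB-DG.

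Region-enriched loci numbered 3, 9, 10 and 7 for SVZ, OB, DG and STR. They were 13, 16, 23 and 20 with a pseudocount of 0.1, and 1, 3, 0 and 0 at 2 log2 units. Per transcript, OB, DG and STR had 34, 26 and 27. A filter of 5 FPKM left 1 for the SVZ and 4 for DG, and median-ratio scaling gave 15 for STR. Without 1 SVZ sample the ranges were 6 to 7, 8 to 13, 10 to 12 and 4 to 14. SVZ sample 1 against OB and DG alone gave 16 for the SVZ. At 5 FPKM, 111 members were detected.

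Reversed values, before the coding median was taken off, were 0.49 (DG-STR) and 0.84 (OB-STR) for Gm12504 and -0.55 and -0.20 for Snhg8 when bridged through the SVZ. Gm12504 was also 4.43 for SVZ-OB without SVZ sample 1 and -0.07 without SVZ sample 2, and 0.77 and -3.73 for SVZ-STR. With its RefSeq row added, Snhg8 was 0.22 for DG-STR and 0.59 for OB-STR. The cause was not tested. The unknown depth limits all loci near 1 FPKM.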
